A study of Mus musculus with 8 samples.

Results

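Uniparental mouse embryonic stem (ES) cells, whose chromosomes all come from 1 parent, were set against ES cells from fertilized embryos, and the genes that moved the same way in both uniparental kinds are described. All 8 arrays of the series were used. The 3 androgenetic and 2 parthenogenetic arrays were chosen by their labels as the uniparental side, with the 2 kinds weighted equally, and the 3 fertilized arrays formed the other side. Androgenetic cells carry paternal genomes alone and parthenogenetic cells maternal genomes alone, whereas fertilized cells have a genome from each parent. All lines were labelled with the B6129F1 background. Androgenetic cells came from passages 6, 7 and 8, with both sexes and X and Y chromosomes given. Parthenogenetic cells came from passages 6 and 7 and were given as female. Fertilized cells came from passages 6, 7 and 8, again with both sexes and X and Y chromosomes given. Nothing in the labels tells whether passages of a kind were independent lines or cultures, and p-values cover the spread from passage to passage only.

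Genomic imprinting silences 1 parental copy of certain genes, and cells with 2 paternal or 2 maternal genomes therefore gain or lose such genes in opposite directions. A gene that moves the same way in both kinds does not follow that pattern. ES cells grow by a strongly glycolytic metabolism and can leave the naive pluripotent state towards epiblast, extraembryonic or somatic fates. Gene groups for these processes were therefore examined.

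Per array, 10623 to 11174 of 25697 probes were above background. Arrays correlated at 0.997 or more within androgenetic, at 0.996 within parthenogenetic and at 0.985 or more within fertilized cells, over probes, which are not independent replicates. Parthenogenetic arrays lay nearer to fertilized arrays (0.961 to 0.967) than androgenetic arrays did (0.862 to 0.868). The ES cell markers Pou5f1, Sox2, Nanog and Zfp42 were all measured, and their summed signal was 5488 to 5695 on androgenetic, 35940 to 36470 on parthenogenetic and 21300 to 25490 on fertilized arrays. Of 20 fibroblast markers, which would mark feeder cells, 6 were measured, with sums of 11040 to 11630, 3686 to 4185 and 1894 to 2077 in the same order. Col1a1, a defining fibroblast collagen, was detected on 3 androgenetic arrays, 1 parthenogenetic array and 0 fertilized arrays. In such bulk samples, fewer cells of a type and less RNA per cell cannot be told apart.

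Genes that shifted together in the 2 uniparental kinds were numerous and were slightly more often lower than higher. Of 8221 genes measured, 813 (9.89%) were higher and 961 (11.7%) lower in both androgenetic and parthenogenetic cells than in fertilized cells, 1774 in all (21.6%; limma, adjusted p under 0.05 in each comparison). Opposite calls were made for 926 genes (11.3%). Both comparisons use the same 3 fertilized arrays, so a fertilized array that stands apart moves both, and the number of shared genes carries no test. Separately, 6140 genes (74.7%) differed between androgenetic and fertilized cells and 3334 (40.6%) between parthenogenetic and fertilized cells. Without parthenogenetic replicate 1 the shared counts were 539 higher and 637 lower.

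The mean of the 2 kinds also takes in genes that only 1 kind moved. It differed from fertilized cells for 5199 genes (63.2%), 2483 higher (30.2%) and 2716 lower (33%), but 3425 of these (41.7% of all genes) were not called the same way in both kinds. In the mean, opposite changes also cancel, as for Igf2, a fetal growth factor expressed from the paternal copy. Its log2 signal was 15.05, 15.06 and 15.04 on androgenetic and 11.39 and 11.47 on parthenogenetic arrays, against 13.15, 13.05 and 13.06 on fertilized arrays. The groups stood on either side of the fertilized cells, and the mean of both had a change of 0.16 that did not pass the test (adjusted p = 0.0527). Only genes called in each kind are therefore treated as shared below.

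The set that changed by at least 2-fold in both kinds held 175 genes (2.13%), 83 higher (1.01%) and 92 lower (1.12%), by fitted values. With genes below background in 1 group set at their bound, 131 remained, 51 higher and 80 lower. The same rule was passed by 81 genes on the authors' log2 table. Detection alone separated 59 genes on the high side, on all 5 uniparental arrays and on no fertilized array, and 55 of these had the shared call. The reverse, detection on the 3 fertilized arrays alone, held for 36 genes, and 36 had the call. Over all 8221 genes, 9.89% were called higher and 11.7% lower in both kinds. Genes split by detection differ between the sides by selection, so their calls are no separate evidence.

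Among the genes highest in both kinds over fertilized cells were several secreted proteins and immune genes. Gbp2b, an interferon-induced GTPase, had log2 signals of 11.42, 11.42 and 11.39 on androgenetic and 9.91 and 10 on parthenogenetic arrays, against 5.06, 5.31 and 5.08 on fertilized arrays. All 5 uniparental arrays were far above the fertilized ones, which did not detect it. Gbp2b was at least 26.3-fold higher in androgenetic and at least 9.60-fold higher in parthenogenetic cells (adjusted p = 6.93e-10 and 7.29e-08, limma). Car2, a carbonic anhydrase, had 12.28, 12.23 and 12.25 on androgenetic and 9.60 and 9.71 on parthenogenetic arrays, against 7.49, 7.36 and 7.56 on fertilized arrays. It was 27.5-fold and 4.53-fold higher, so both kinds rose but to different levels (adjusted p of the difference between kinds 3.51e-08). Igfbp7, a secreted insulin-like growth factor binding protein, had 10.90, 10.87 and 10.66 on androgenetic and 9.94 and 9.72 on parthenogenetic arrays, against 7.53, 7.79 and 7.68 on fertilized arrays (log2 changes 3.14 ± 0.10 and 2.17 ± 0.12, SE).

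Notum, a secreted enzyme that strips lipid from WNT proteins and so restrains their signal, gave 10.09, 10.21 and 10.04 on androgenetic and 9.49 and 9.48 on parthenogenetic arrays, against 6.82, 6.68 and 6.62 on fertilized arrays. Of the 3 fertilized arrays, 2 detected it. Igfbp5, a relative of Igfbp7, had 8.24, 8.23 and 8.26 on androgenetic and 8.47 and 8.47 on parthenogenetic arrays, against 6.33, 6.13 and 6.61 on fertilized arrays. Its level was close in the 2 uniparental kinds and the difference between them did not pass the test (adjusted p = 0.144). H2-Bl, a class I histocompatibility gene, was higher in parthenogenetic than in androgenetic cells, with 7.74, 7.89 and 7.96 on androgenetic and 9.26 and 9.33 on parthenogenetic arrays, against 5.74, 5.95 and 5.65 on fertilized arrays. It was at least 2.25-fold higher in androgenetic and at least 6.08-fold higher in parthenogenetic than in fertilized cells. Samd9l, a restrictor of growth and of viruses, was at least 1.31-fold and at least 2.68-fold higher. Also among the leading 10 increases were Nipal2, a membrane transporter gene (at least 10.7-fold in androgenetic and at least 1.53-fold in parthenogenetic cells), and Lpar1, a receptor for lysophosphatidic acid (at least 4.14-fold and at least 1.98-fold). Gbp2b and H2-Bl, like Acot1 among the decreases, belong to families of close relatives, and whether their probes also match a relative was not tested.

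**Figure D1:**
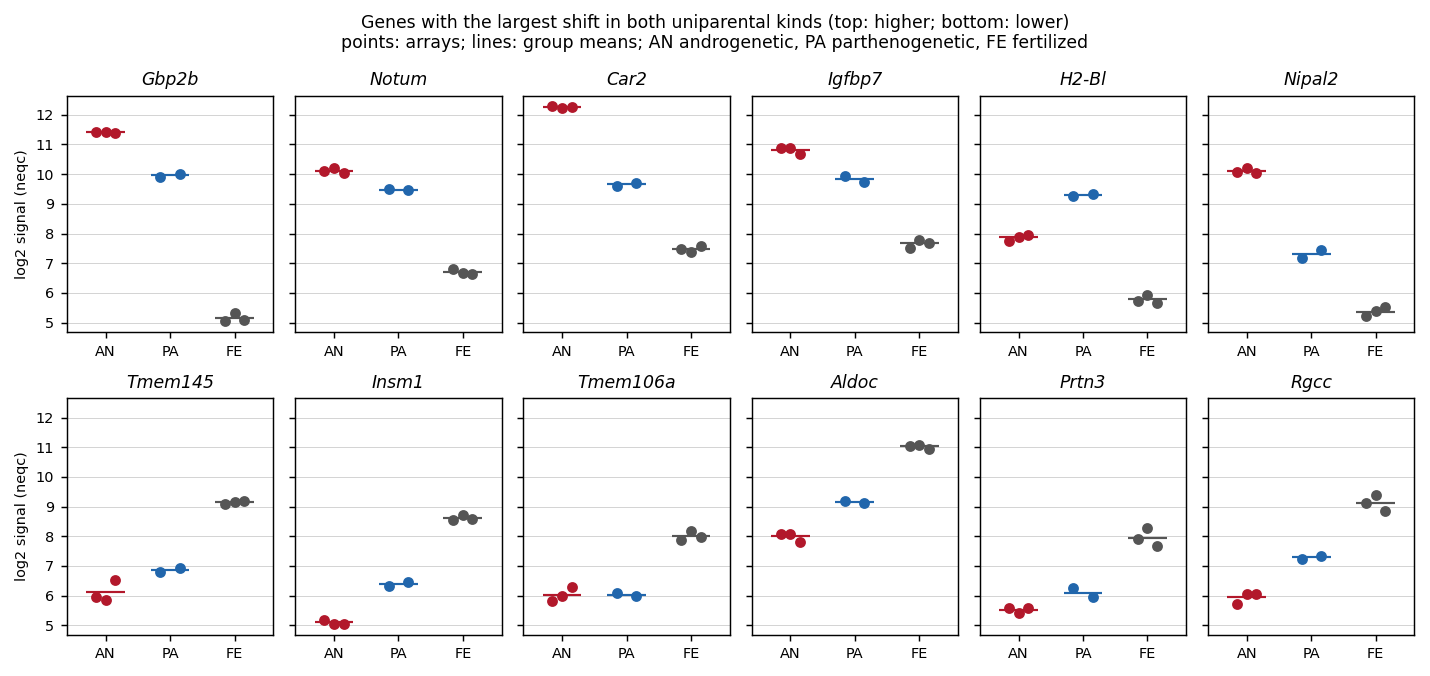
Log2 signal on every array (points, with group means as lines) for the 6 leading genes higher (top row) and the 6 leading genes lower (bottom row) in both uniparental kinds, with androgenetic (AN), parthenogenetic (PA) and fertilized (FE) arrays in that order. For each gene shown the 5 uniparental arrays lie on 1 side of the 3 fertilized arrays, which the rule for naming genes required.

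The leading decreases included metabolic enzymes and a neuroendocrine regulator. Insm1, a zinc finger factor of neuroendocrine cells, had 5.19, 5.04 and 5.06 on androgenetic and 6.32 and 6.45 on parthenogenetic arrays, against 8.55, 8.71 and 8.58 on fertilized arrays. It was below background on all 5 uniparental arrays, at least 3.84-fold lower in androgenetic and at least 3.97-fold lower in parthenogenetic cells. Acot1, an acyl-CoA thioesterase of fatty acid metabolism, had 10.84, 10.81 and 10.78 on androgenetic and 11.31 and 11.23 on parthenogenetic arrays, against 12.91, 13.02 and 12.95 on fertilized arrays. Being well above background throughout, it gives measured folds, 4.43-fold lower in androgenetic and 3.23-fold lower in parthenogenetic cells (adjusted p = 2.08e-08 and 2.69e-06). Mgarp, which encodes a mitochondrial protein, had 8.81, 8.73 and 8.74 on androgenetic and 9.76 and 9.61 on parthenogenetic arrays, against 11.34, 11.37 and 11.24 on fertilized arrays (5.88-fold and 3.11-fold lower). Of the other leading decreases, Tmem145 was at least 5.53-fold and 4.87-fold lower, Rgcc, a cell cycle regulator, at least 5.44-fold and 3.55-fold, Tmem25 at least 3.34-fold and 3.15-fold, and Rab39, a small GTPase of vesicle traffic, at least 3.11-fold and 3.03-fold, in androgenetic and parthenogenetic cells in that order. Prtn3, a serine protease known from neutrophils, was below background in both kinds, and it was lower by at least 2.40-fold and 2.48-fold.

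**Figure D2:**
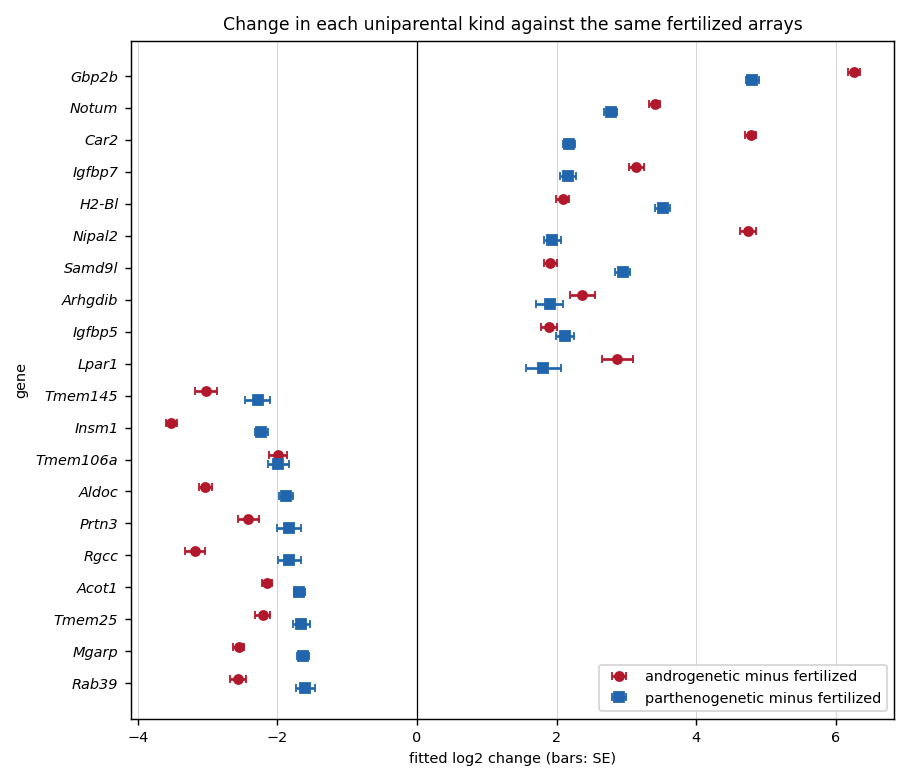
Fitted log2 change against fertilized cells of the 10 leading increases and 10 leading decreases, with circles for androgenetic and squares for parthenogenetic cells and bars for standard errors. Gbp2b lies at 6.26 and 4.81, and Tmem106a at -1.99 in both kinds. Both kinds are set against the same 3 fertilized arrays, and fitted changes of genes below background in a group depend on the offset.

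The size of a shared shift often differed between the 2 kinds, but no more often than levels did over all genes. Of the 1774 genes with a shared call, androgenetic and parthenogenetic levels differed for 1163 (limma, adjusted p under 0.05), whereas over all genes 5845 (71.1%) differed between these kinds. The change was larger in androgenetic cells for 984 and larger in parthenogenetic cells for 179. For the other 611 the difference did not pass the threshold, which does not show that the levels were equal. Leaving out parthenogenetic replicate 1 or 2 reduced the 1163 to 658 and 742.

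By the rule that ranked genes on the smallest difference between kinds, the most even increases were in Nagk, Mrpl15, Mospd3, Bik and Tlr2. Mospd3 lay near background, being detected on 2 androgenetic, 1 parthenogenetic and 0 fertilized arrays. Nagk, a kinase that salvages N-acetylglucosamine, had 10.02, 10.04 and 10.07 on androgenetic and 9.96 and 10.13 on parthenogenetic arrays, against 9.08, 9.21 and 8.75 on fertilized arrays. Both kinds were 2.04-fold higher. Bik, a death-promoting member of the BCL2 family, was 2.09-fold higher in androgenetic and 2.02-fold higher in parthenogenetic cells. Tlr2, a receptor for bacterial lipoproteins, was at least 2.78-fold and at least 2.90-fold higher. Even decreases were found in Tmem106a, Otud7a, Ifi30, Wt1 and Stk17b. Tmem106a and Otud7a were below background on every uniparental array, so the evenness of their levels could not be measured. Tmem106a had 5.81, 5.97 and 6.28 on androgenetic and 6.08 and 5.98 on parthenogenetic arrays, against 7.88, 8.18 and 7.98 on fertilized arrays, and was lower by at least 2.53-fold and 2.61-fold. Wt1, a zinc finger regulator of kidney and gonad development, was 2.20-fold lower in androgenetic and 2.26-fold lower in parthenogenetic cells. Ifi30, a lysosomal thiol reductase, was 2.11-fold and 2.05-fold lower.

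A few genes shifted mainly in parthenogenetic cells and passed the test in androgenetic cells by a small margin, so that their shared calls depend on the setting. Cxcl12, a chemokine, had 9.88, 9.78 and 9.87 on androgenetic and 6.88 and 7.05 on parthenogenetic arrays, against 10.17, 10.26 and 9.97 on fertilized arrays. It was 1.22-fold lower in androgenetic cells (adjusted p = 0.0227) and 8.98-fold lower in parthenogenetic cells (adjusted p = 5.66e-07). Sh3tc2 changed by 0.27 ± 0.090 and 1.53 ± 0.10 (log2, SE) and the glucocorticoid-induced gene Tsc22d3 by 0.25 ± 0.090 and 1.35 ± 0.10. Of the complement gene C2 and the kinase Irak1 in Toll-like receptor signalling, C2 was 1.14-fold and 2.33-fold lower, and Irak1 was detected in neither androgenetic nor fertilized cells and was at least 1.72-fold higher in parthenogenetic cells. The shared call of C2 was lost with median scaling, with the replicate block and when any 1 androgenetic array or fertilized replicate 1 was left out, and that of Tsc22d3 under the same settings other than median scaling. Sh3tc2 lost it without androgenetic replicate 2 or 3 or fertilized replicate 1, and Cxcl12 with median scaling and without androgenetic replicate 2 or fertilized replicate 1 or 2. Irak1 lost it or was not measured in 9 settings, among them those without androgenetic replicate 1 or 3 or fertilized replicate 2 or 3.

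Glycolysis converts glucose to pyruvate and lactate, and hypoxia-inducible factors raise many of its enzymes when oxygen is low. Of 29 glycolysis and hypoxia response genes measured, 13 (44.8%) were lower in both kinds, against 11.7% of all genes, and 0 were higher in both. Under the alternative settings 11 to 15 were lower. The median change was -1.12 in androgenetic and -0.49 in parthenogenetic cells (log2), against -0.051 and -0.0058 over all genes, and the list's medians were the same with undetected genes at their bound. The 13 were Pfkl, Pfkm, Aldoa, Aldoc, Tpi1, Eno2, Pkm, Ldha, Pdk1, Egln3, Ndrg1, P4ha1 and P4ha2. Enzymes of glycolysis among them were the phosphofructokinases Pfkl and Pfkm, the aldolases Aldoa and Aldoc, triosephosphate isomerase (Tpi1), an enolase (Eno2), pyruvate kinase (Pkm) and lactate dehydrogenase (Ldha), whereas Gapdh, Pgk1 and Pgam1, which act between Tpi1 and the enolases, had no shared call.

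Aldoc, an aldolase known from brain, had 8.09, 8.08 and 7.81 on androgenetic and 9.18 and 9.12 on parthenogenetic arrays, against 11.05, 11.09 and 10.95 on fertilized arrays. It was 8.20-fold and 3.68-fold lower (adjusted p = 1.67e-08 and 6.95e-06). Eno2 went furthest in parthenogenetic cells, with 8.98, 9.01 and 8.89 on androgenetic and 8.30 and 8.19 on parthenogenetic arrays, against 10.40, 10.62 and 10.42 on fertilized arrays (log2 changes -1.52 ± 0.086 and -2.24 ± 0.096, SE). The difference between kinds passed the test (adjusted p = 0.000163). Egln3, a prolyl hydroxylase that senses oxygen and is itself induced by hypoxia, had 8.45, 8.41 and 8.35 on androgenetic and 10.59 and 10.40 on parthenogenetic arrays, against 11.51, 11.62 and 11.85 on fertilized arrays. It was 9.57-fold and 2.25-fold lower.

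The other shared members had the same direction. Pdk1, a kinase that shuts off pyruvate dehydrogenase, had 8.99, 9.03 and 9.07 on androgenetic and 11.30 and 11.33 on parthenogenetic arrays, against 12.30, 12.25 and 12.51 on fertilized arrays (chosen after its values were seen, as were the following enzymes). Pfkl changed by -2.02 and -0.84 (log2), Pfkm by -1.58 and -0.86, Tpi1 by -0.98 and -0.75, Pkm by -0.89 and -0.67 and Ldha by -0.87 and -0.47, in androgenetic and parthenogenetic cells. Pkm and the collagen prolyl hydroxylase subunit P4ha2 did not pass the test between kinds (adjusted p = 0.113 and 0.678). Not every member followed. Slc2a1, a glucose transporter, was higher in androgenetic cells (0.70 ± 0.086) and lower in parthenogenetic cells (-0.39 ± 0.096), and the phosphofructokinase Pfkp was lower in androgenetic cells (-2.54 ± 0.12) and higher in parthenogenetic cells (0.49 ± 0.13). Gapdh had changes of -0.18 and -0.19, and the parthenogenetic one did not pass (adjusted p = 0.0711). Beside these values, the summed ES markers were lower on androgenetic and higher on parthenogenetic than on fertilized arrays, while the summed fibroblast markers were higher on both. Their part in this result was not tested.

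**Figure D3:**
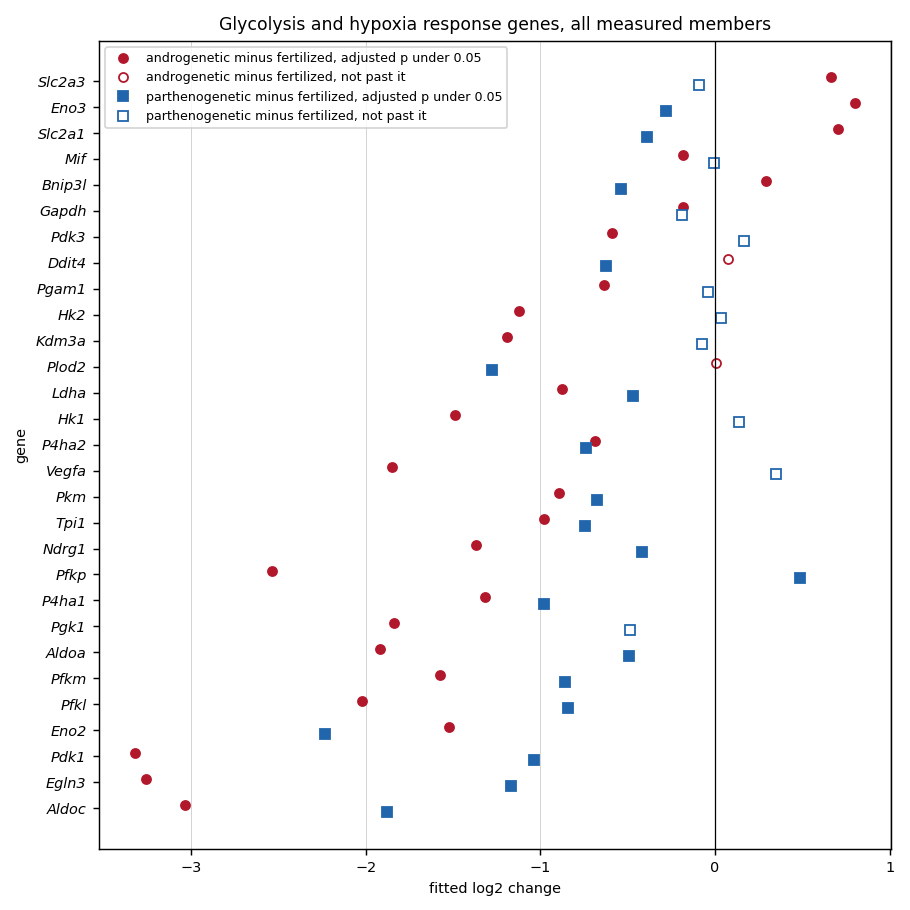
Fitted log2 change of the 29 measured glycolysis and hypoxia response genes against fertilized cells, with circles for androgenetic and squares for parthenogenetic cells, filled where the adjusted p was under 0.05. For 13 genes both symbols are filled and lie left of 0, Aldoc, Egln3 and Pdk1 at the bottom being at -3.04, -3.26 and -3.32 in androgenetic cells.

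The start-site regions of Aldoc, Eno2 and Egln3 are shown because these 3 genes had the largest shared decreases of the list, by the smaller of the 2 changes. The core letters of the hypoxia response element, ACGTG or GCGTG, were searched on both strands in 250 bases before to 50 after the start (RefSeq, GRCm38.p6), and capitals mark the matches. Aldoc lies at chr11:78322823-78323122 on the plus strand, Eno2 at chr6:124769624-124769923 on the minus strand and Egln3 at chr12:54203825-54204124 on the minus strand, and the first of 2 listed starts was taken for Aldoc.
Aldoc: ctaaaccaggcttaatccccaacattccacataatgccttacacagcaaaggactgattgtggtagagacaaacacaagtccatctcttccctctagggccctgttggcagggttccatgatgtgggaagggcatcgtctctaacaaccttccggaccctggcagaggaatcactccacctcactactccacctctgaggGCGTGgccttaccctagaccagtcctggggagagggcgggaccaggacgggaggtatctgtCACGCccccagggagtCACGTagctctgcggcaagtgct
Eno2: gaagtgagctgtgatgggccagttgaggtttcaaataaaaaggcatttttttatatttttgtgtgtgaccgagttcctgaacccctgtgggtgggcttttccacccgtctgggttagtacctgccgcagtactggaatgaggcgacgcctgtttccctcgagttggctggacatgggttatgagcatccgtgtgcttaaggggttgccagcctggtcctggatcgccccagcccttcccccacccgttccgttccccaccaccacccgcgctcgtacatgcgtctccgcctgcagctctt
Egln3: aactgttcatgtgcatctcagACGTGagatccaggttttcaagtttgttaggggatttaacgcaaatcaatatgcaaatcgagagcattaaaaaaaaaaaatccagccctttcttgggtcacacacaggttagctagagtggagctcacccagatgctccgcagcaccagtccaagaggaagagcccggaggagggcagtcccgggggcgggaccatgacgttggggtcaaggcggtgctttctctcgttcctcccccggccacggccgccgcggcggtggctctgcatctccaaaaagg
Aldoc held 3 matches, Eno2 held 0 and Egln3 held 1. The letters are common, being found in 43.8% of 27025 promoters and in 64.5% of the 6723 measured genes with a promoter sequence. They occurred in 8 of 12 promoters of list members lower in both kinds (66.7%) and in 11 of 13 promoters of the other measured members (84.6%).

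Extracellular matrix and cytoskeletal genes included several that were higher in both kinds. Of 28 matrix and integrin genes, 9 (32.1%) were higher in both and 3 lower, against 9.89% and 11.7% of all genes. The 9 were Nid1, Hspg2, Tnc, Itga5, Itga6, Timp3, Lox, Serpinh1 and Thbs1, which encode basement membrane and matrix proteins, integrins, a protease inhibitor and collagen-processing proteins, and the 3 were Lama1, Nid2 and Loxl2. Lox lay too close to background in parthenogenetic cells to bound a fold. The median of the list was 1.03 in androgenetic and 0.11 in parthenogenetic cells (1.02 and 0.013 with undetected genes at their bound). Lama1, a laminin chain, was 4.01-fold and 1.98-fold lower. Of 19 actin and contractile genes, 4 (21.1%) were higher in both and 0 lower. They were Acta2, Actg2, Tagln and Msn, but Actg2 lay near background in parthenogenetic cells, with a bound of 1.13-fold. The median of this list was 1.25 in androgenetic and 0.00039 in parthenogenetic cells, with 14 members higher and 0 lower in androgenetic cells and 4 higher and 4 lower in parthenogenetic cells. Acta2, smooth muscle actin, had 15.48, 15.51 and 15.51 on androgenetic and 14.62 and 14.68 on parthenogenetic arrays, against 13.91, 14.15 and 13.88 on fertilized arrays, a rise of 2.87-fold and 1.59-fold.

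Some fibroblast markers rose as well. Of 20 in the list 6 were measured, and Col1a1, Col5a1 and Vim were higher in both kinds (50%, against 9.89% of all genes). None was lower in both, and 1 was called in opposite directions. Col5a1, a fibrillar collagen, had 12.18, 12.10 and 12.12 on androgenetic and 10.30 and 10.48 on parthenogenetic arrays, against 8.60, 9.02 and 8.91 on fertilized arrays. Vim, an intermediate filament protein, was 6.65-fold and 2.08-fold higher. The list's median was 1.90 and 0.71, or 1.36 and 0.19 with undetected genes at their bound. The summed fibroblast signal was higher than on fertilized arrays in both kinds, whereas the matrix and actin medians were 1.03 and 1.25 in androgenetic cells but 0.11 and 0.00039 in parthenogenetic cells. This fibroblast sum takes in the markers just counted and is no separate evidence of their rise. Its part in the matrix and actin results was not tested.

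Of 8 neural genes measured, 5 (62.5%) were higher in both kinds, against 9.89% of all genes, and 0 were lower in both. The count higher was 5 under every alternative setting run. The list's median was 1.13 in androgenetic and 0.86 in parthenogenetic cells, with undetected genes at their bound as well. Gap43, a growth cone protein, had 11.49, 11.41 and 11.40 on androgenetic and 8.07 and 8.26 on parthenogenetic arrays, against 7.30, 6.95 and 7.42 on fertilized arrays (18.5-fold and 1.92-fold higher). Map2, a microtubule protein of neurons, went further in parthenogenetic cells, with 8.31, 8.26 and 8.24 on androgenetic and 9.32 and 9.27 on parthenogenetic arrays, against 7.39, 7.46 and 7.54 on fertilized arrays. Stmn2, another neuronal microtubule regulator, was 1.89-fold and 2.64-fold higher. The other two were the intermediate filament gene Nes and Dpysl3. Mapt, which encodes tau, and Gbx2 were called in opposite directions. Of 5 defining neural markers 2 were measured, Nes and Map2, which are among the genes just named, so their sum is no separate evidence. It was 1270 to 1359 on androgenetic, 1052 to 1058 on parthenogenetic and 415.8 to 446.1 on fertilized arrays.

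Extraembryonic genes were less uniform. Of 12 trophectoderm genes 4 (33.3%, against 9.89% of all genes) were higher in both kinds (Eomes, Gata2, Tead4 and Ets2) and 0 lower in both. Another 3 were called in opposite directions, as were 11.3% of all genes. Ets2, a transcription factor, was 1.59-fold and 1.80-fold higher, whereas Eomes was at least 4.94-fold higher in androgenetic cells and not above background in parthenogenetic or fertilized cells. The count was 2 when any androgenetic or parthenogenetic array was left out and with the replicate block. The summed signal of the 6 measured of 9 defining trophectoderm markers was 75290 to 80490 on androgenetic, 14670 to 15220 on parthenogenetic and 15020 to 16960 on fertilized arrays, so parthenogenetic and fertilized sums overlapped. Of 13 primitive endoderm genes 3 (23.1%, against 11.7% of all genes) were lower in both (Lama1, Amn and Apoe) and 6 were opposite. Amn, a component of the endocytic receptor for vitamin B12, was 6.02-fold and 2.36-fold lower, and the lipid carrier Apoe had log2 changes of -2.17 and -0.67. The 4 measured of 8 defining primitive endoderm markers summed to 2718 to 2919 on androgenetic, 480.9 to 566.3 on parthenogenetic and 1435 to 1600 on fertilized arrays, higher and lower than fertilized in the 2 kinds. In the primitive streak list, Gsc and Bmp4 were higher in both, 2 of 4 measured (50%, against 9.89% of all genes). Gsc was at least 6.63-fold higher in androgenetic cells, but near background in parthenogenetic cells, where the bound was 1.13-fold.

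Some primed epiblast and DNA methylation genes were lower in both kinds. Of 8 primed genes 3 (37.5%, against 11.7% of all genes) were lower in both and 0 higher. Otx2, a homeobox regulator of the primed state, had 7.61, 7.54 and 7.79 on androgenetic and 10.73 and 10.64 on parthenogenetic arrays, against 12.02, 11.85 and 12.33 on fertilized arrays (21.4-fold and 2.61-fold lower). Fgf15, a fibroblast growth factor, was at least 2.26-fold and 1.39-fold lower, and its call was lost without parthenogenetic replicate 1. Of 9 DNA methylation genes 3 (33.3%) were lower in both and 0 higher. They were Dnmt3b, a de novo methyltransferase (1.81-fold and 1.33-fold lower), its cofactor Dnmt3l (17.3-fold and 1.37-fold) and Dppa3, which protects methylation in the early embryo (3.98-fold and 1.33-fold). Dppa3 lost the call when either parthenogenetic array or fertilized replicate 1 was left out. Dnmt3b had 13.65, 13.61 and 13.61 on androgenetic and 14.08 and 14.06 on parthenogenetic arrays, against 14.43, 14.40 and 14.62 on fertilized arrays.

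Naive pluripotency genes split between the kinds, so a mean over both does not describe them. Of 24 members, 12 were called in opposite directions, against 11.3% of all genes. In both kinds 2 (8.33%) were higher (Klf5 and Tbx3) and 3 (12.5%) lower (Dppa3, Utf1 and Socs3), close to the shares over all genes. Pou5f1, Sox2 and Nanog changed by -2.25, -2.81 and -2.09 in androgenetic and by 0.32, 0.31 and 0.72 in parthenogenetic cells. Klf5, a Kruppel-like factor, was 1.35-fold and 2.05-fold higher, and Tbx3 1.52-fold and 2.36-fold. Other probes of Tbx3 did not pass the test in androgenetic cells. Utf1, a chromatin factor of pluripotent cells, was 12.3-fold and 1.52-fold lower.

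Genes of developmental signalling moved in both directions. Of 17 nodal and BMP pathway genes 5 were higher (29.4%) and 3 lower (17.6%) in both kinds, against 9.89% and 11.7% of all genes, with 0 opposite. Lefty2, an extracellular inhibitor of nodal, had 10.93, 10.84 and 10.84 on androgenetic and 10.79 and 10.74 on parthenogenetic arrays, against 9.43, 9.47 and 9.66 on fertilized arrays. The 2 uniparental kinds were close, 2.54-fold and 2.36-fold higher (adjusted p of their difference 0.327). The ligand Bmp4 and the targets Id1, Id2 and Smad6 were also higher, Bmp4 by 6.78-fold and 1.67-fold and Id2 by 5.22-fold and 1.81-fold. The ligand Bmp7 was lower, by 2.01-fold and 1.92-fold, as were the receptor Acvr2b and the repressor Skil. Of 15 WNT pathway genes 4 were higher (26.7%) and 2 lower (13.3%) in both, and 5 were called in opposite directions, as were 11.3% of all genes. The ligands Wnt4 (10.6-fold and 1.57-fold) and Wnt7b (2.79-fold and 1.76-fold), the target Sp5 and the repressor Tcf7l1 were higher, and the receptor Fzd7 (1.72-fold and 1.70-fold) and Nkd2, an antagonist, were lower. Sp5 rose mainly in androgenetic cells, by at least 66.6-fold. Its mean log2 signal in parthenogenetic cells, 6.68 against 6.16 in fertilized cells, was too close to background to bound a fold. Of 15 MAPK and immediate early genes, 3 were higher in both (Myc, Phlda1 and Atf3, 20%) and 2 lower in both (Spry4 and Spred1, 13.3%). Another 6 were called in opposite directions. The growth regulator Myc passed only narrowly in parthenogenetic cells (limma, adjusted p = 0.0492). Leaving out either parthenogenetic array ended the calls of Myc and Phlda1 and left 1 member higher, and the number lower was 0 with median scaling and 1 without androgenetic, parthenogenetic or fertilized replicate 1.

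**Figure D4:**
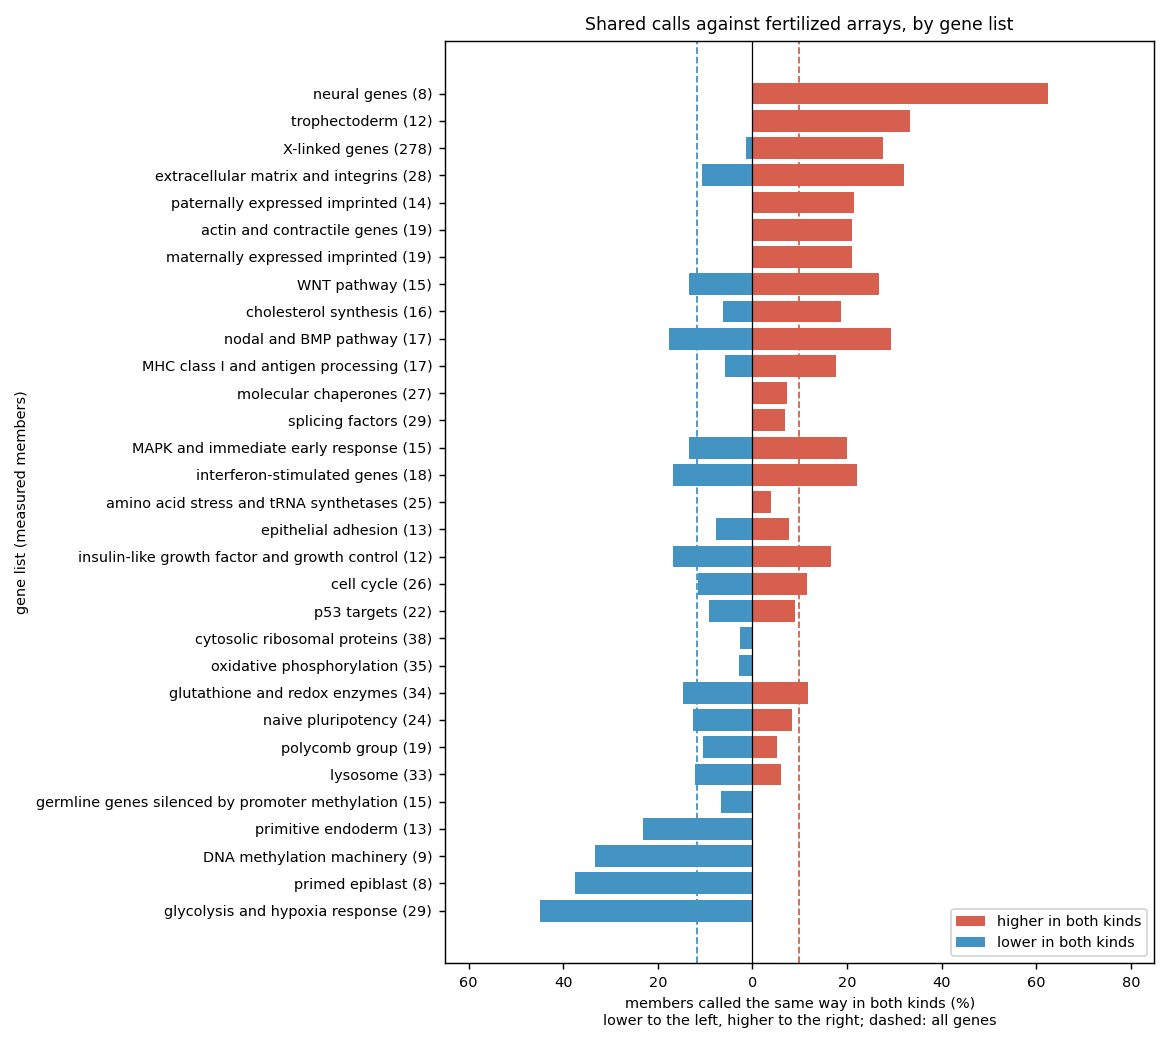
Share of each gene list with 8 or more measured members that was higher (right) or lower (left) in both uniparental kinds than in fertilized cells, in percent of measured members, whose number is in brackets. Dashed lines give the shares over all 8221 genes, 9.89% higher and 11.7% lower. Neural genes stand at the top with 62.5% higher, and glycolysis genes at the bottom with 44.8% lower.

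Interferon-stimulated genes were divided, with the guanylate-binding proteins on the high side. Of 18 measured, 4 (22.2%) were higher in both kinds (Gbp2, Gbp2b, Gbp3 and Psmb8), 3 (16.7%) lower (Ifitm3, Irf9 and Bst2) and 2 opposite, against 9.89% higher and 11.7% lower of all genes. Gbp2 had 12.45, 12.44 and 12.44 on androgenetic and 11.15 and 11.08 on parthenogenetic arrays, against 10.70, 10.68 and 10.71 on fertilized arrays. Gbp3 was 4.34-fold and 1.77-fold higher. Bst2, a membrane protein that tethers viruses, was 3.86-fold and 1.81-fold lower, and Ifitm3, which blocks viral entry, changed by -0.54 and -0.70 (log2). Without parthenogenetic replicate 1 the number lower in both was 1, and Bst2 and Psmb8 lost their calls. Of 17 genes measured in the histocompatibility and antigen processing list, 3 (17.6%) were higher in both (B2m, Psmb8 and Pdia3) and H2-Ke6 was lower. Despite its symbol, H2-Ke6 encodes a steroid dehydrogenase and not a histocompatibility protein. The number higher was 0 without parthenogenetic replicate 1 and 1 when any other 1 uniparental array was left out.

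Start-site regions of the 3 guanylate-binding genes, which lie near each other on chromosome 3, are shown because these genes moved together. The interferon response motif, TTTC, any 2 bases and TTTC, was searched on both strands in the same RefSeq windows (GRCm38.p6), and capitals mark the matches. The windows are chr3:142594597-142594896 for Gbp2b, chr3:142620413-142620712 for Gbp2 and chr3:142559794-142560093 for Gbp3, all on the plus strand, and the first of 2 listed starts was taken for Gbp3.
Gbp2b: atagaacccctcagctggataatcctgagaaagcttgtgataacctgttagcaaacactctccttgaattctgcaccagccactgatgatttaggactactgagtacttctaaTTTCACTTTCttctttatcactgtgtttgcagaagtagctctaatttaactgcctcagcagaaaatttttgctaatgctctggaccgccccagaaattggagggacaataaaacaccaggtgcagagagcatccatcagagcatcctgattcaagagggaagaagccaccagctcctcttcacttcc
Gbp2: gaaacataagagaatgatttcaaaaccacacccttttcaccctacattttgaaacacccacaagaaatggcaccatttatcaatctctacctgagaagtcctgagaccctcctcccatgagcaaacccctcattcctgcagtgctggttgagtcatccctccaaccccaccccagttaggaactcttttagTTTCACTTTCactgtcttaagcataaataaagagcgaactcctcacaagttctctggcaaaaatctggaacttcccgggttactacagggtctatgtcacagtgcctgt
Gbp3: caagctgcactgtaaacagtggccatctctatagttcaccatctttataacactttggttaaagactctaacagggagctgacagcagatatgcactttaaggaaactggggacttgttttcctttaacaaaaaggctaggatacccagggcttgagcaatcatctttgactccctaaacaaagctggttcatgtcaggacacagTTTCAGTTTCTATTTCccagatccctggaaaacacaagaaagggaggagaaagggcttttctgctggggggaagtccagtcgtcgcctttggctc
Gbp2b and Gbp2 held 1 match each and Gbp3 held 2 that overlap. The motif was present in 3.49% of 27025 promoters and in 10 of 18 promoters of measured interferon-stimulated genes (55.6%). It was in 3 of 4 of those higher in both kinds, 2 of 3 of those lower in both and 5 of 11 of the others.

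Most other groups showed few shared calls. Of 35 oxidative phosphorylation genes only Sdhd, a subunit of succinate dehydrogenase, was lower in both kinds, and of 38 cytosolic ribosomal protein genes only Rpl22 was. Rpl22 had 11.94, 11.86 and 11.81 on androgenetic and 12.27 and 12.37 on parthenogenetic arrays, against 13.20, 13.35 and 13.30 on fertilized arrays. These 2 lists had 0 members higher in both, and Sdhd lost its call with median scaling and without parthenogenetic replicate 2. Of 16 cholesterol synthesis genes 3 (18.8%) were higher (Msmo1, Nsdhl and Ebp) and Insig1, a brake on the pathway, was lower. Of 25 amino acid stress and tRNA synthetase genes 10 were opposite, as were 11.3% of all genes, and 1, Sesn2, was higher in both. Of 15 germline genes 11 were opposite and Rec8, a meiotic cohesin, was lower in both. Both Sesn2 and Rec8 lost their calls when either parthenogenetic array was left out. Of 26 cell cycle genes, 3 were higher in both (the cyclins Ccnd2 and Ccne2 and the inhibitor Cdkn2a) and 3 lower (the mitotic genes Plk1, Aurka and Mad2l1). These shares, 11.5% each way, are close to the 9.89% and 11.7% over all genes. Only 1 was higher when any 1 androgenetic or parthenogenetic array or fertilized replicate 1 was left out, or with no filter on dim probes, and 0 were lower without parthenogenetic replicate 2.

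Some imprinted genes also moved the same way in both kinds. Of 14 genes known for expression from the paternal copy, 8 were called in opposite directions, as were 11.3% of all genes. Another 3 (21.4%, against 9.89% of all genes) were higher in both (Ndn, Mkrn3 and Sfmbt2). Ndn, a growth-restraining protein gene of the Prader-Willi region, had 12.00, 12.15 and 11.93 on androgenetic and 11.02 and 10.98 on parthenogenetic arrays, against 9.9995, 10.10 and 10.05 on fertilized arrays. Its level was 1.93-fold higher in parthenogenetic than in fertilized cells (adjusted p = 9.57e-05). Mkrn3, a ubiquitin ligase gene of the same region, was 1.41-fold and 1.43-fold higher, while Snrpn, also of that region, changed by 0.23 in androgenetic and -3.68 in parthenogenetic cells. Sfmbt2, a polycomb gene, had 9.36, 9.36 and 9.43 on androgenetic and 9.69 and 9.63 on parthenogenetic arrays, against 8.21, 7.52 and 8.28 on fertilized arrays. Of 19 genes known for expression from the maternal copy, 6 were opposite and 4 (21.1%) were higher in both (Tssc4, H13, Pon2 and Qpct). H13, a signal peptide peptidase, was 1.82-fold and 2.53-fold higher, and Pon2, an antioxidant enzyme, 9.76-fold and 1.98-fold. In neither list was a gene lower in both kinds. The allele expressed was not measured here.

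The X chromosome carried a larger share of increases than any autosome. Of 278 X-linked genes, 77 (27.7%) were higher and 4 (1.44%) lower in both, whereas of 7938 autosomal genes 736 (9.27%) were higher and 957 (12.1%) lower. Shares on single autosomes ran from 5.38% to 11.4% higher and from 7.73% to 15.1% lower. The X-linked genes did not move alike in each kind, with 106 higher and 91 lower in androgenetic cells, where 35.4% and 39.3% of all genes were so called. In parthenogenetic cells 192 were higher and 9 lower, where 20.3% of all genes were called in each direction. Parthenogenetic cells were labelled female and fertilized cells female and male, so X dose and the lack of a paternal genome cannot be told apart.

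Examples on the X chromosome, chosen after their values were seen, are Wdr45, an autophagy gene, and Tmsb4x, which encodes an actin-binding thymosin. Wdr45 had 10.45, 10.56 and 10.40 on androgenetic and 10.84 and 10.91 on parthenogenetic arrays, against 8.96, 9.04 and 9.06 on fertilized arrays. Tmsb4x was 3.01-fold higher in androgenetic and 2.33-fold higher in parthenogenetic cells. Ebp, an enzyme of cholesterol synthesis, was 2.03-fold and 3.58-fold higher. The 4 X-linked genes lower in both were Bgn, Heph, Igsf1 and Map7d3. Igsf1, an immunoglobulin superfamily gene, changed by -0.73 ± 0.096 and -0.76 ± 0.11 (log2, SE).

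**Figure D5:**
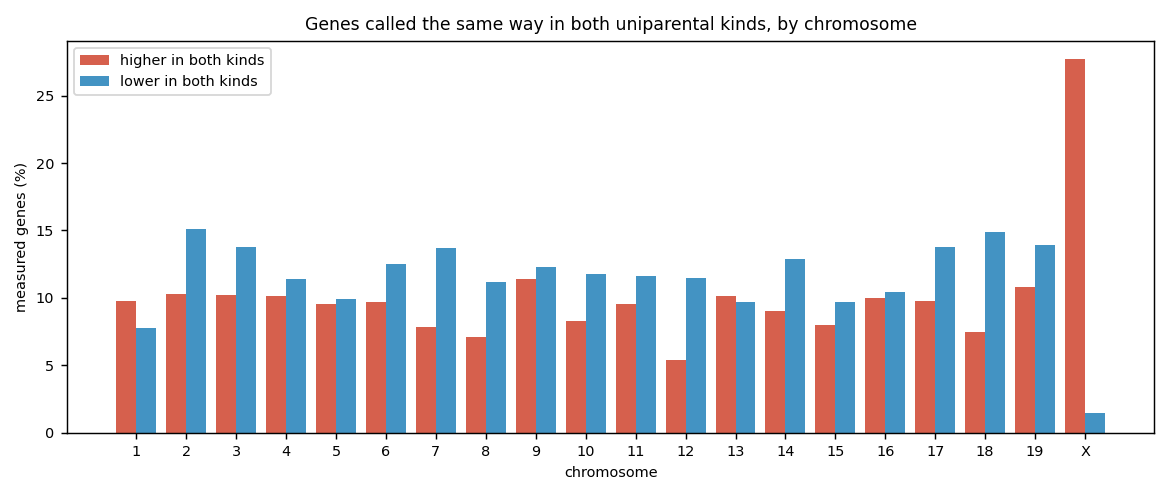
Share of measured genes that were higher or lower in both uniparental kinds than in fertilized cells, by chromosome, in percent. The X chromosome stands at 27.7% higher and 1.44% lower, and no autosome exceeds 11.4% higher.

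Where a gene had more than 1 kept probe, the probes mostly pointed the same way. Of 466 such genes with a shared call, every probe had the same sign of the mean change in 423, every other probe repeated the call in 222, and 2 had another probe with the opposite shared call. Among the genes named, another probe of Srsf2, a splicing factor, had -0.25 and -0.10 where the brighter one had 0.27 and 0.33. A further probe of Id2, Insig1, Prpf8, Sesn2 and Tbx3 also lacked the shared call. That of Insig1 changed by -0.52 in androgenetic and 0.056 in parthenogenetic cells.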

How the data were processed

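RNA from 8 samples of mouse ES cells was hybridised to Illumina BeadChips of 1 colour. Per the labels' protocols, the mirVana kit served for total RNA and the TotalPrep kit for its amplification, and BeadStudio 3.1.3 is named per the submitters' processing notes. The deposited non-normalized table holds a linear intensity per probe and array, with a detection p-value deposited beside it. The authors also deposited a table of log2 values, used as an alternative. The slide of each array is not given in the sources used here. The gene of each probe came from the platform annotation (12145 probes with 1 gene) and its chromosome from RefSeq (GRCm38.p6). The annotation covers probes of the authors' log2 table, so a gene outside it has no name here.

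Signals were background corrected from the detection p-values and quantile normalized (neqc, offset 16, limma 3.58.1, R 4.3.3), and the offset shrinks changes of dim genes. A probe was kept if its detection p was below 0.01 on 2 or more of the 8 arrays, which left 12300, among them 11262 with a name. Each of 8221 genes took its probe with the highest mean, a choice needed for 2176. A linear model of group means took in all arrays, so that the 2 parthenogenetic arrays share the spread of the others. Contrasts were the mean of both kinds, each kind against fertilized cells and the 2 kinds against each other, with moderated tests and Benjamini-Hochberg adjustment over kept probes. A shared call needs an adjusted p under 0.05 in the same direction in both kinds. A fold against a group that did not detect a gene is a bound against the lowest detected signal of each array, and where a group is split in its detection no fold is printed. The number of arrays limits the precision. The fit was checked on simulated data. Replicate numbers 1, 2 and 3 stand for passages 6, 7 and 8. Correlations of residuals between arrays with the same number ran from -0.090 to 0.067. With 2 or 3 arrays per group these cannot settle whether arrays of a passage pair, so the replicate block was kept as an alternative.

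The comparison, gene lists and alternatives were chosen with earlier results of these data known. Genes were named by rule: the 10 largest shared increases and decreases by the smaller of the 2 changes, the 5 most even and the 4 whose parthenogenetic change exceeded the androgenetic one by the most in each direction, up to 3 members of each list, and a few set genes. Apart from the set genes, a gene named by rule also had to pass in the mean of both kinds. All 5 uniparental arrays had to lie beyond the 3 fertilized arrays, so that separation is no result. Other names are given for counts of 5 or fewer or said to be chosen after their values were seen.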

Additional observations from a re-analysis of the deposited data

Results flagged for a closer look

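Over all genes, 71.1% had different levels in androgenetic and parthenogenetic cells by the test between the kinds. Of the 1774 genes called the same way in both kinds, 1163 did. Car2 and Otx2 are examples with larger changes in androgenetic cells, and H2-Bl and Cxcl12 with larger changes in parthenogenetic cells.

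Probes without a gene name take no part in the comparisons above. Of the 1038 kept, 105 (10.1%) were higher and 112 (10.8%) lower in both kinds than in fertilized cells, beside 9.46% and 11.5% of the named probes. Whether these probes measure genes other than the named ones was not tested.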

How the results depend on the processing

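No shared call turned to the opposite direction under any of the 18 alternatives. The count of genes past 2-fold in both kinds, 175, was 81 on the authors' log2 table, 78 with no background correction, 84 over probes detected on all 8 arrays and 112 with an offset of 50. Array quality weights raised the number whose levels differ between kinds to 1777. Leaving out 1 array at a time gave 4695 to 5319 genes for the mean of both kinds, 539 to 914 higher and 637 to 1080 lower in both, 175 to 199 past 2-fold and 658 to 1346 that differ between kinds. The lowest shared counts came without parthenogenetic replicate 1. With the replicate block, which stands for passage, 697 were higher and 854 lower, 674 and 822 of them as before. Median scaling moved the median of all genes to 0.089 in androgenetic and -0.056 in parthenogenetic cells. The cause of these moves was not tested. For the named genes' change in the mean of both kinds, 2132 of the alternative values kept direction and side of the threshold, and Igf2 passed in 6 settings. The shared call, which needs both kinds, was less stable. Of the 116 named genes that had it, 29 lost it in at least 1 alternative, and 96 kept it without parthenogenetic replicate 1, 98 without parthenogenetic replicate 2 and 104 with median scaling or without fertilized replicate 1. Prpf8 and Srsf2 lost it when probes were averaged. Dim genes are the least certain, since the offset and background set their fold changes. Myc, Gata2 and Cdkn2a lost the shared call, or were not measured, in at least 10 settings, Ccne2, Irak1 and Pdia3 in 9, Cryab and Pcgf1 in 8, C2 in 6, and Bmi1, Cldn3, Igf2bp1 and Tsc22d3 in 5. Of the list medians under the alternatives, 492 stayed within the spread between arrays and 102 moved beyond it. With 2 parthenogenetic arrays, small shifts in that kind have the least support.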

Other observations

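Pygl, Pgm1 and Ppp1r3c, which act in glycogen metabolism, are described because they were lower in both kinds, and other genes of glycogen metabolism were not counted. Pygl, a glycogen phosphorylase, had log2 signals of 7.00, 7.18 and 6.96 on androgenetic and 7.50 and 7.37 on parthenogenetic arrays, against 8.91, 8.80 and 9.03 on fertilized arrays. It was 3.66-fold and 2.78-fold lower. Pgm1, a phosphoglucomutase that links glycogen to glycolysis, was 3.49-fold and 2.93-fold lower, and Ppp1r3c, a subunit that directs a phosphatase to glycogen, was at least 3.53-fold and 2.18-fold lower.

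Of 34 glutathione and redox enzymes 4 (11.8%) were higher and 5 (14.7%) lower in both kinds, close to the 9.89% and 11.7% over all genes, and 2 were lower without parthenogenetic replicate 1 and 3 without parthenogenetic replicate 2 or fertilized replicate 1. Among them were Gpx1, a peroxidase, 2.12-fold and 1.70-fold higher, Hmox1, which degrades heme, 3.14-fold and 1.61-fold higher, and the transferase Gstt2 4.01-fold and 1.63-fold lower. Of 33 lysosomal genes 2 (6.06%) were higher and 4 (12.1%) lower in both, and 2 were lower with the replicate block and when any 1 androgenetic or parthenogenetic array or fertilized replicate 1 was left out. The number higher was 1 when either parthenogenetic array was left out. Neu1, a sialidase, was 1.48-fold and 1.76-fold lower. Of 22 p53 targets 2 were higher and 2 lower in both, Zmat3 and Sesn2 against Rrm2b and Ddb2. That is 9.09% each way, no more than over all genes, and both counts were 0 when either parthenogenetic array was left out.

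Further groups held small numbers of shared calls, and over all genes 9.89% were higher and 11.7% lower in both kinds. Of 12 growth control genes, Igfbp5 and Igf2bp1 were higher (16.7%) and Igfbp2 and Lin28a lower (16.7%) in both kinds, Igfbp2 by 4.39-fold and 1.60-fold. Of 13 epithelial adhesion genes, the desmosomal cadherin Dsg2 was higher (2.69-fold and 1.60-fold) and the tight junction gene Cldn3 lower (1.23-fold and 1.37-fold), which is 7.69% each way. Of 19 polycomb genes, Bmi1 was higher (5.26%) and Pcgf1 and Pcgf5 were lower (10.5%) in both. Bmi1 lay near background, with bounds of 1.59-fold in androgenetic and 1.15-fold in parthenogenetic cells. Leaving out either parthenogenetic array ended the calls of Igf2bp1, Bmi1 and Pcgf1, and Cldn3 lost its call without androgenetic replicate 1 or 2, parthenogenetic replicate 2 or fertilized replicate 2. Of 27 chaperones, Cryab and Hspb1, both small heat shock proteins, were higher in both (7.41%), but 0 were with median scaling, with the replicate block or with either parthenogenetic array left out. Of 29 splicing factors, Prpf8 and Srsf2 were higher in both (6.9%), but with the probes of a gene averaged 0 were higher and 3 lower. Of 4 genes of the 2-cell-like state, Tcstv3 was higher in both (25%), by at least 1.90-fold in androgenetic and at least 2.09-fold in parthenogenetic cells. Edn1, which encodes the vasoconstrictor endothelin, changed by 4.52 ± 0.085 and 1.67 ± 0.095 (log2, SE), and 2 of 3 fertilized arrays detected it.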
